A study of Homo sapiens with 4 samples.

Results

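Long intergenic noncoding RNAs with LINC symbols were examined in HCT116, a human colon carcinoma line, with and without an intact TOP3B gene. The members were chosen by symbol and by count: rows of the deposited table named LINC followed by digits alone that held 10 or more counts in at least 2 of the 4 libraries. This rule kept 176 of 1904 LINC symbols in a table of 35820 genes. 1273 LINC symbols had 0 counts in every library, and 455 had counts but fell below the minimum. Unedited wild-type (WT) HCT116 gave 2 libraries, and E2-4, a knockout (KO) line edited by CRISPR at exon 2 of TOP3B, gave the other 2. All KO values thus come from 1 edited line, in which the loss of TOP3B and other features of that line cannot be told apart. The same culture medium is given for both groups and no treatment is named, and ribosomal RNA was depleted from total RNA before sequencing. TOP3B encodes a topoisomerase that acts on DNA and on RNA, and the study was set up to examine its roles in R-loop structure and in transcription.

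Long intergenic noncoding RNAs are transcribed from their own promoters between protein-coding genes, are mostly spliced and polyadenylated like mRNAs, and are usually less abundant and more restricted to single cell types than mRNAs. Some act on chromatin or on neighbouring genes, some bind proteins or other RNAs in the cytoplasm, and for most no function is known. In an R-loop a nascent RNA pairs with its DNA template and leaves the other DNA strand single, often near promoters with many CpG dinucleotides and more G than C on the transcript's strand.

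The rule used the level in the same libraries that were compared, so passing it is not a result. The minimum was met in all 4 libraries by 113 members, in 3 libraries by 33, and in 1 WT and 1 KO library by 12. The remaining 18 met it in 1 genotype only, 7 in both WT libraries and 11 in both KO libraries, and these had to differ between the groups. Just inside the minimum lay LINC00311, with 4, 9, 10 and 18 counts, and LINC00654, with 17, 9, 5 and 10 (WT replicates 1 and 2, then KO replicates 1 and 2, an order kept below). Just outside lay LINC01036, with 2, 9, 3 and 22 counts, and LINC01128, with 3, 9, 22 and 8.

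The libraries held 10450048 to 16143634 estimated counts. Levels are given as CPM, the count scaled to the library total after TMM normalization. For an RNA with 0 counts the upper limit, 3 counts, lay between 0.176 and 0.271 CPM by library and covers counting error only. WT replicate 1 stood apart, with a TMM scaling factor of 0.858 against 1.04 to 1.06 in the others, and RN7SK, SNORD3A and RMRP took 11.4% of its counts against 7.33% to 9.90%. TOP3B itself was at 57.1, 66.5, 43.9 and 54.7 CPM; an edit of a few bases need not remove the RNA, so its level is no check of the genotype. Of 11 markers of colon epithelium and carcinoma, 10 were in the deposited table. The count minimum was met by 6 of these, while KRT20 and CEACAM5 were at 0. Those markers summed to between 2117 and 2584 CPM in WT and between 1452 and 1522 CPM in KO, and the part of this difference in the results below was not tested. Of the 6 leukocyte and 4 endothelial markers, 5 and 3 were in the deposited table, and none of these had the minimum. Of 5 fibroblast markers 1 had it, and the fibroblast list summed to between 1.31 and 1.72 CPM in WT. In KO that list summed to between 0.633 and 1.23 CPM. Whether replicates were separate cultures is not given, and p-values then measure only the spread between these libraries, which may be technical.

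Promoter windows of 5 members are shown because these RNAs had no or almost no counts in 1 genotype and had a window in the RefSeq table (250 bases before to 50 after the gene start, build GRCh38.p14, matched by symbol). The first 3 RNAs had counts in KO only, and the last 2 had counts in WT and 0 or 1 in KO. CpG dinucleotides are in capitals, and each sequence runs 5′ to 3′ on the strand of the gene.
LINC00665: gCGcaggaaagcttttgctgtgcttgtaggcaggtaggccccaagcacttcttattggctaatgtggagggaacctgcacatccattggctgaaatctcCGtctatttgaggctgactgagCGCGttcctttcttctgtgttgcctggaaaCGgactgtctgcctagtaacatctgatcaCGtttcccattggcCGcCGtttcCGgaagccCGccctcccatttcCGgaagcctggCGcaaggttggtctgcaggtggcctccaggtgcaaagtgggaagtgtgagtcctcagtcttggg
LINC00857: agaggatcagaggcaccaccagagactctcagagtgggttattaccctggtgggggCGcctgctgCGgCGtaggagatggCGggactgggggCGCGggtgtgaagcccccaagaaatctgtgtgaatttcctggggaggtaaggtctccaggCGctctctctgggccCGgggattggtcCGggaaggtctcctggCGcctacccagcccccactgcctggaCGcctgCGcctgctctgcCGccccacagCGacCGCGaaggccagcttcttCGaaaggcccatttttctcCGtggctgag
LINC00847: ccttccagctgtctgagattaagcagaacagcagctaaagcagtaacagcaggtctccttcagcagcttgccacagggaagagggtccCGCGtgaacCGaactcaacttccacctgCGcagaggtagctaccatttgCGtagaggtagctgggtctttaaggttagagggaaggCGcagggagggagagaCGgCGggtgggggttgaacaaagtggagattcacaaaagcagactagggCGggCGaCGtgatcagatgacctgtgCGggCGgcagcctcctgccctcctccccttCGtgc
LINC00886: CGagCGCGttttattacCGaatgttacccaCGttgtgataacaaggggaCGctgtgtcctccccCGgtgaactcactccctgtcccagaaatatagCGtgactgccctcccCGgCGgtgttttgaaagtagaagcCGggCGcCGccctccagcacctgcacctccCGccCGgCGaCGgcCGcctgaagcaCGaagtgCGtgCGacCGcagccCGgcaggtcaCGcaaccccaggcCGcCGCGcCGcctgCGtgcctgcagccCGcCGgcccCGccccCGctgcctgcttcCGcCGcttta
LINC02454: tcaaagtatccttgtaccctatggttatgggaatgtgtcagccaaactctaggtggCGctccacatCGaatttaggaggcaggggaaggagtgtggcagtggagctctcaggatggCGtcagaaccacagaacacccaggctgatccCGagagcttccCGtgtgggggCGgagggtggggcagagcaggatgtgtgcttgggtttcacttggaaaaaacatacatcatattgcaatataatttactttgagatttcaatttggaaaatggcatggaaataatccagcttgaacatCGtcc
The windows lie at chr19:36331669-36331968 (minus strand), chr10:80207460-80207759 (plus), chr5:180830707-180831006 (plus), chr3:156817013-156817312 (minus) and chr12:65602619-65602918 (plus), in that order. LINC01405 and LINC02895, which also had 0 counts in KO, were not matched to a window.

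The 5 windows held between 7 and 35 CpG, so none was among the 35.5% of member windows and 34.4% of all windows with 5 CpG or fewer. LINC00886 held 35 CpG in 300 bases and LINC02454 held 7, while LINC00665, LINC00857 and LINC00847 held 12, 18 and 14. The median was 11 over the 107 members with a window and 14 over all 27305 genes with one. GC content was 67.7% for LINC00886 and 48.7% for LINC02454, against medians of 56.3% for members and 58.3% for all genes. GC skew, the excess of G over C divided by their sum, was -0.18 for LINC00886 and between 0.05 and 0.19 for the other 4 windows, against medians of 0.02 for members and 0.00498 for all genes. Most of each window lies before the gene start, so this skew is not that of the transcribed sequence and is no measure of R-loops. Among the 5, LINC00886 and LINC02454, both found in WT, lay at opposite ends of CpG number and of GC skew.

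4 short motifs were searched on both strands of each window. CCAAT, read by the factor NF-Y, occurred 3 times in the LINC00665 window and 1 time in that of LINC00857, and it was present in 45.8% of member windows and 35.7% of all windows. CCGGAAG, the core read by ETS factors, occurred 2 times in the LINC00665 window and in 0 of the other 4, with 12.1% of member and 10.7% of all windows holding it. GGGCGG, the GC box read by SP1, was found in all 5 windows, 3 times in that of LINC00886, and in 46.7% of member and 44.6% of all windows. TATAAA was in 0 of the 5, in 13.1% of member windows and in 12.0% of all windows. None of the 4 motifs contains another. A match is a description of letters in the window.

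The members showed no difference between the KO line and WT cells that passed edgeR. edgeR's quasi-likelihood test, adjusted over all 12269 genes tested, called 0 of the 170 members it could test, against 0.00815% of all genes, and limma-voom also called 0. At an unadjusted p under 0.05 edgeR gave 15 members, 7 higher and 8 lower in KO. They were 8.82% of members, against 11.2% of all genes (4.97% higher and 6.21% lower). Among the 18 members that had met the count minimum in 1 genotype only, edgeR tested 13, and 7 were at such a p. The selection required these to differ, so the share of 8.82% is not a result about the members. DESeq2, an alternative test, called 4 of the 175 members for which it gave an adjusted p, 2 higher and 2 lower, against 1.45% of all genes (0.504% higher and 0.946% lower). All 4 were among the 18 that had met the count minimum in 1 genotype only, and DESeq2 called 0 of the 158 others, so this share is not a result about the members. Single libraries moved the calls: without WT replicate 2, edgeR called 5 of 175 members against 4.42% of all genes, and DESeq2 called 3 of 164 against 5.87%. Without WT replicate 1, KO replicate 1 or KO replicate 2, edgeR called 0 members (0.0237%, 0% and 0% of all genes) and DESeq2 called 0, 1 and 1 (0.614%, 0.548% and 0.561% of all genes). Scaling by library size alone and no filter on low counts each gave 1 member, LINC02895 (0.342% and 0.176% of all genes), while upper-quartile factors and a filter of at least 1 CPM gave 0 (0.0408% and 0.0085%).

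6 low-level members had counts in 1 genotype only: LINC00857, LINC00665 and LINC00847 in KO, and LINC02895, LINC01405 and LINC02454 in WT. They met the count minimum through that genotype, so their difference was required by the selection, and the values and p below describe them and support nothing further. The lower bounds of their folds set the mean CPM of the genotype with counts against 3 counts over the other group, and they move with the libraries used: without 1 library they were 14.8 to 63.7 for LINC00857, 9.32 to 19.7 for LINC00665, 3.71 to 9.86 for LINC00847, 17.4 to 49.1 for LINC02895, 8.15 to 25.3 for LINC01405 and 4.59 to 16.1 for LINC02454. The lowest bound came without KO replicate 1 for LINC00857, without WT replicate 1 for LINC00665 and LINC00847, and without KO replicate 2 for the other 3. All these bounds cover counting error only, and an estimated count can also fall to 0 where shared reads are divided. A 0 need not follow genotype: MIR17HG, a microRNA host looked up after its values were seen, had 0, 38, 16 and 44 counts.

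LINC00857, an RNA studied in lung and bladder carcinoma, had 0, 0, 84 and 30 counts. Its level was 7.59 and 1.76 CPM in KO, and the mean of these was at least 39.3-fold higher than WT, or at least 14.8-fold without KO replicate 1 (DESeq2 adjusted p = 0.000885; edgeR adjusted p = 0.278). Both KO libraries were above WT, with KO replicate 1 well above KO replicate 2 (4.68 ± 4.12 CPM, SD, n = 2). Leaving out KO replicate 1 raised the DESeq2 adjusted p to 0.755, and leaving out WT replicate 1 raised it to 0.0778. Its nearest protein-coding neighbours in RefSeq order are ANXA11, a calcium-dependent membrane-binding protein, and MAT1A, a methionine adenosyltransferase. ANXA11 stood at 353 CPM in WT and 315 CPM in the KO line, a log2 fold change of -0.16 (SE 0.13) that did not pass edgeR (adjusted p = 0.624), and MAT1A had 0, 2, 4 and 12 counts.

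LINC00665, studied in several carcinomas and reported to encode a small peptide, had 0, 0, 26 and 38 counts. The KO libraries lay close together at 2.35 and 2.23 CPM, at least 19.2-fold above WT (DESeq2 adjusted p = 0.0127; edgeR adjusted p = 0.246). Leaving out any of the 4 libraries raised the DESeq2 adjusted p to between 0.0676 and 0.564. The zinc finger genes on either side had groups that overlapped, ZNF565 with 26, 50, 22 and 45 counts and ZFP14 with 10, 9, 5 and 18. In RefSeq the span of LINC00665 overlaps that of the gene CYKILR. LINC00847, which RefSeq places across the zinc finger gene ZFP62, had 0, 0, 13 and 11 counts, at least 7.64-fold higher in KO; it was under the edgeR filter, and DESeq2 gave no adjusted p. ZFP62 had 108, 134, 74 and 313 counts, and where genes overlap the division of reads between them is uncertain.

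LINC02895 showed the opposite pattern, with 68, 51, 0 and 0 counts. Its WT level was 5.24 and 4.18 CPM, with a KO level at least 44.1-fold lower (DESeq2 adjusted p = 0.000160; edgeR adjusted p = 0.246). The symbol was not matched in RefSeq, so no neighbours are given. With WT replicate 1 left out its DESeq2 adjusted p became 0.0521, and with KO replicate 2 left out 0.0769.

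LINC01405, listed in RefSeq as VHRT and lying between the cardiac myosin light chain gene MYL2 and the homeobox gene CUX2, had 35, 21, 0 and 0 counts. With 2.70 and 1.72 CPM in WT, its mean level was at least 20.7-fold above that of KO (adjusted p = 0.0138 in DESeq2 and 0.253 in edgeR). Without WT replicate 1 the DESeq2 adjusted p was 0.929, and leaving out each of the other libraries gave 0.0654 to 0.469. MYL2 had at most 2 counts in any library and CUX2 had 0, so both neighbours were under the floor of 3 counts in every library.

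LINC00886 had 22, 22, 0 and 1 counts, or 1.70, 1.80, 0 and 0.0587 CPM. It too met the minimum through WT only. The ratio of WT to KO, from counts and library sizes summed over each group, was 49.1, with an exact 95% interval for counting error from 8.36 to 1982 (log2 fold change -5.31, SE 0.85). It passed neither test, at adjusted p = 0.253 in edgeR and 0.115 in DESeq2. Its neighbours TIPARP, an ADP-ribosyltransferase, and LEKR1 were at log2 fold changes of 0.22 (SE 0.14) and 0.44 (SE 0.40), with edgeR adjusted p of 0.557 and 0.674. PA2G4P4, which overlaps LINC00886 in RefSeq, had 47, 47, 37 and 84 counts, and the division of reads between overlapping genes is uncertain. LINC02454 had 10, 21, 0 and 0 counts, at least 11.7-fold lower in KO. It was under the edgeR filter and did not pass DESeq2 (adjusted p = 0.133). MSRB3-AS1, which overlaps it in RefSeq, had 130, 133, 34 and 69 counts (log2 fold change -1.54, SE 0.29; adjusted p = 0.260 in edgeR and 0.0667 in DESeq2). MSRB3, a methionine sulfoxide reductase gene beside them, had 5, 4, 12 and 37 counts (log2 fold change 2.18, SE 0.61; edgeR adjusted p = 0.365). For the LINC RNA and the antisense RNA each KO library was under each WT library, and for MSRB3 each was over. None of these genes passed a test in which it was included, and LINC02454 was included in DESeq2 only. LINC00847 and LINC02454 and the overlapping genes were looked up after their values were seen.

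**Figure D1:**
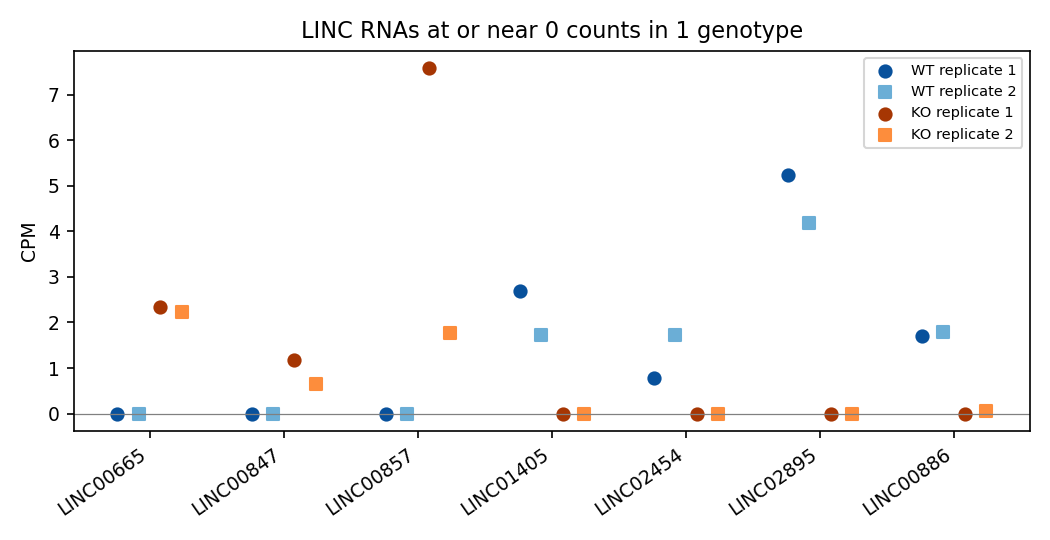
Level in CPM (vertical axis, linear) of 7 LINC RNAs in each library; circles are replicate 1 and squares replicate 2, blue for WT and orange for KO. The first 3 had 0 counts in both WT libraries, the next 3 had 0 in both KO libraries, and LINC00886 had 1 count in KO; LINC00857 reached 7.59 CPM in KO replicate 1 and 1.76 in KO replicate 2.

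Among RNAs found in both genotypes, several had both KO libraries above both WT libraries without passing the test. They were named for their small p, which favours such a separation, and 23.5% of all genes tested had it. LINC01399 had 2.77, 2.87, 6.23 and 7.22 CPM (log2 fold change 1.25, SE 0.31; edgeR adjusted p = 0.328). LINC02535 had 1.62, 2.46, 5.33 and 6.58 CPM (log2 fold change 1.55, SE 0.38; edgeR adjusted p = 0.333). Its neighbour NT5E, which encodes the surface enzyme that makes adenosine from AMP, had 212, 265, 364 and 558 counts (log2 fold change 0.79, SE 0.20; adjusted p = 0.337 in edgeR and 0.186 in DESeq2). TBX18 on the other side, a T-box transcription factor gene, had a log2 fold change of 0.42 (SE 0.30). In LINC02535 and NT5E every KO library was above every WT library, and neither passed. LINC02709 had 4.70, 4.26, 8.95 and 8.28 CPM (log2 fold change 0.94, SE 0.27; edgeR adjusted p = 0.373), the KO libraries again lying together above WT. LINC03015 had 8, 7, 15 and 31 counts, LINC01409 had 46, 59, 72 and 131, and neither passed (edgeR adjusted p = 0.420 and 0.466).

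Of the RNAs lower in KO, LINC02967 had the smallest p among those with counts in every library. It had 3.62, 4.18, 0.813 and 0.998 CPM (log2 fold change -2.08, SE 0.40, adjusted p = 0.260 in edgeR and 0.196 in DESeq2). Its neighbour SYNDIG1 had 0 counts in every library. LINC02616 had 6.32, 6.63, 2.17 and 3.64 CPM, with a log2 fold change of -1.14 (SE 0.38; edgeR adjusted p = 0.410). LINC02851, LINC02983 and LINC02593 had log2 fold changes of -0.96, -1.09 and -1.44, with edgeR adjusted p of 0.432, 0.437 and 0.447. In all 5 both KO libraries were below both WT libraries, as in 23.5% of all genes tested. They were named for their small p, which favours such a separation, so it is not a result about them. LINC02593 and LINC03015 were also among the 18 that met the count minimum in 1 genotype only.

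**Figure D2:**
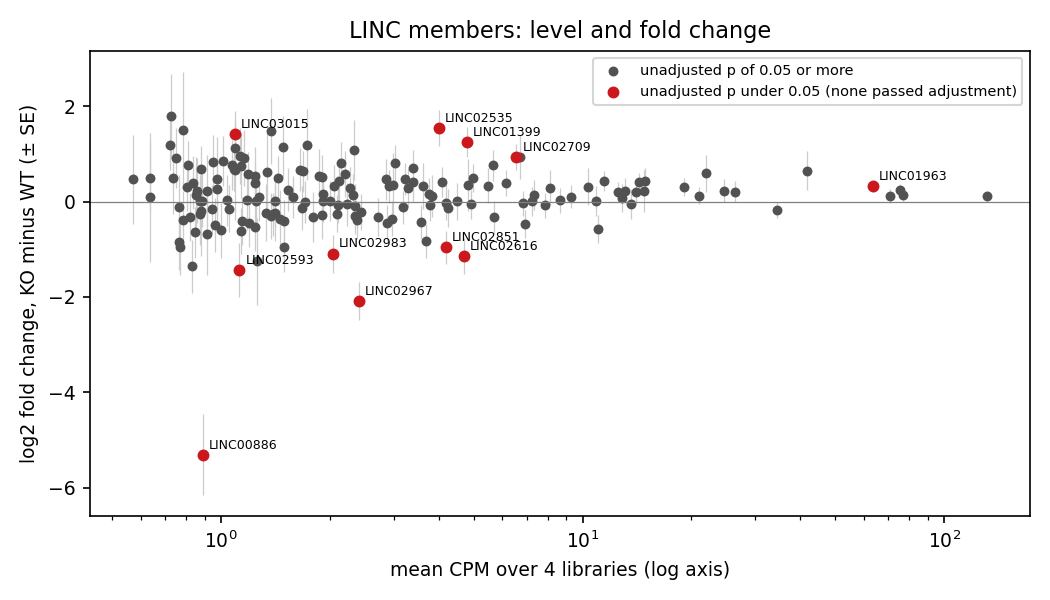
Log2 fold change from edgeR, KO minus WT, with an SE derived from the F statistic (vertical axis), for 166 tested members. The horizontal axis is mean CPM over the 4 libraries (log scale). Left out are 4 tested members with 0 counts in a whole group. Red points are the 11 at an unadjusted p under 0.05, of which 0 passed adjustment, and LINC00886 lies lowest at -5.31.

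The 8 members of highest CPM had log2 fold changes between -0.17 and 0.64, and edgeR called 0 of them. LINC02210, whose locus continues into the readthrough gene LINC02210-CRHR1, was the highest in CPM at 126.1, 125.9, 137.8 and 135.9 CPM (log2 fold change 0.12, SE 0.11; edgeR adjusted p = 0.671). Its KO libraries were both above WT by a margin that did not pass the test, a separation that 23.5% of all genes tested also had. LINC01234, studied in gastric and colorectal carcinoma, had 76.9, 70.1, 82.8 and 78.7 CPM (log2 fold change 0.13, SE 0.12; edgeR adjusted p = 0.672). LINC00641, beside the gene of the splicing factor HNRNPC, had 67.0, 71.1, 78.2 and 85.5 CPM (log2 fold change 0.25, SE 0.12; edgeR adjusted p = 0.510). Groups of these 2 RNAs did not overlap either, and neither passed.

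LINC01963 lay next in order with LINC01123. It had 54.2, 58.1, 69.6 and 71.9 CPM, and with a log2 fold change of 0.33 (SE 0.12) it did not pass edgeR (adjusted p = 0.437), although its groups did not overlap. LINC01123 had 66.0, 70.0, 79.7 and 68.0 CPM, and its groups overlapped (log2 fold change 0.12, SE 0.14). LINC00963, studied in prostate carcinoma, had 32.7, 40.0, 33.5 and 31.2 CPM, overlapping as well (log2 fold change -0.17, SE 0.17). After LINC02210 the order by mean level was LINC01234, LINC00641, LINC01123, LINC01963, LINC00506, LINC00963 and LINC00339, and the levels of LINC01234, LINC00641 and LINC01123 ran into each other within the range of their libraries.

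In LINC00506 and LINC00339 it was WT replicate 1 that stood apart. LINC00506 had 19.3 CPM there against 45.9, 49.7 and 52.0 in the other libraries, and its log2 fold change of 0.64 (SE 0.41; edgeR adjusted p = 0.565) became 0.15 without WT replicate 1 and 1.41 without WT replicate 2 (edgeR adjusted p = 0.0195). LINC00339 had 20.1 CPM there against 28.9, 27.9 and 28.8, and its log2 fold change of 0.21 became -0.028 without that library. LINC00662, another RNA studied in carcinoma, had 2.47, 2.78, 2.53 and 2.00 CPM (log2 fold change -0.22, SE 0.38).

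**Figure D3:**
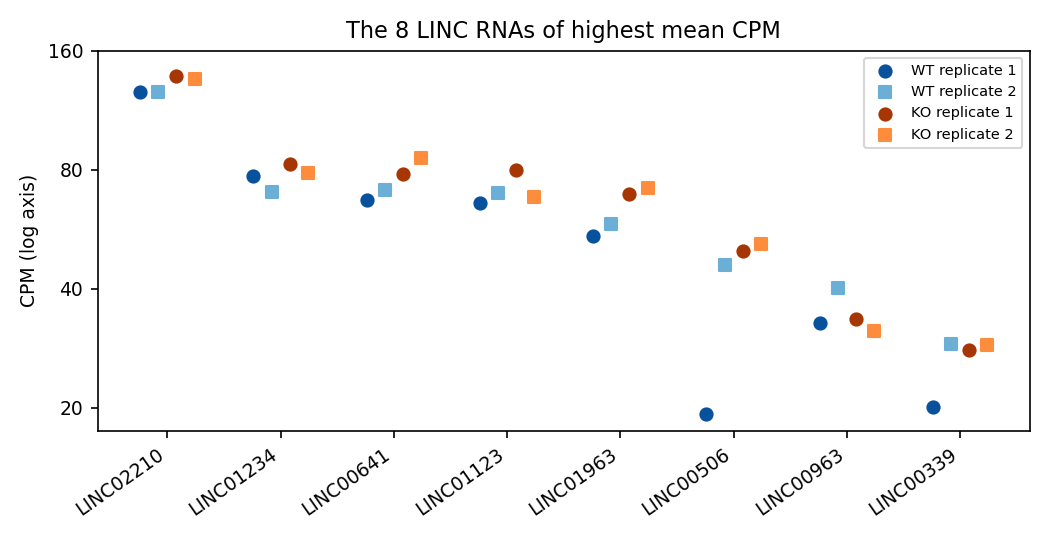
Level in CPM (vertical axis, log scale) of the 8 members of highest mean CPM in each library, with symbols for WT (blue) and KO (orange) replicates 1 (circles) and 2 (squares). LINC02210 lies between 125.9 and 137.8 CPM; in LINC00506 and LINC00339 the WT replicate 1 point, at 19.3 and 20.1 CPM, lies apart from the other 3.

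Of 21 LINC symbols listed as often studied in carcinoma 10 were in the deposited table. The members among them were 4, LINC00665, LINC00662, LINC00963 and LINC01234. Of 6 listed for a described role 1 was in the table and was a member, LINC00339. A list of 9 symbols for RNAs that encode small proteins had 1 in the table and 0 members. That list is not complete, since it leaves out LINC00665. A gene listed under a LINC symbol may be in the table under another name, so these counts do not show that its RNA was absent. Of these 5 members DESeq2 called LINC00665 alone (1.45% of all genes were called), a member that met the minimum through KO only, and edgeR called 0 (0.00815% of all genes). A further list held 30 long noncoding RNAs with names of their own, some of them the same genes as LINC symbols on the lists above. Of the 30, 14 were tested, edgeR called 0, and DESeq2 called 1, against the same shares of all genes. It was MALAT1, a nuclear RNA of splicing speckles. MALAT1 had 199, 76.9, 51.0 and 51.0 CPM, with WT replicate 1 far above the other 3 libraries (log2 fold change -1.44; edgeR adjusted p = 0.390; DESeq2 adjusted p = 0.0288; -0.59 in edgeR without WT replicate 1). This is the reverse of LINC00506 and LINC00339, which were lowest in that library.

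Per length, on the deposited RPKM scale, the order of the members changed. LINC00431 was first with a mean of 54.9 RPKM, followed by LINC02210 with 38.9, LINC01963 with 20.4, LINC01399 with 20.01, LINC00641 with 12.8 and LINC01123 with 8.87. LINC00680 and LINC00294 came next with 6.23 and 5.83 RPKM. The RPKM imply a length of 159 bases for LINC00431 and of 245 bases for LINC01399, while over the 171 members matched in RefSeq the implied length was 0.952 of the genomic span at the median. LINC01234 was the second member in CPM and had 1.68 RPKM over an implied 46013 bases. The levels of LINC00431 were 7.94, 9.25, 7.59 and 9.86 CPM, with overlapping groups (log2 fold change 0.03, SE 0.27). LINC00680 had 11.6, 12.9, 16.4 and 16.3 CPM (log2 fold change 0.42, SE 0.19; edgeR adjusted p = 0.494) and LINC00294 had 15.2, 18.9, 21.0 and 21.1 CPM (log2 fold change 0.30, SE 0.19; edgeR adjusted p = 0.564). In both the KO libraries lay above WT, by less than the test required.

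The members were scarce beside other genes. Their median level was 1.91 CPM against 15.9 CPM over all genes tested; 39 of the 176 lay under 1 CPM, 113 between 1 and 10, and 24 at 10 or more. The 8 most abundant members of each library held 44.5% to 49.1% of the member counts. The median SE of a log2 fold change was 0.46 for tested members and 0.26 for all genes tested. It was 0.60 for the 34 tested members under 1 CPM and 0.22 for the 24 at 10 CPM or more, where all genes at those levels had 0.65 and 0.18. For a member under 1 CPM a 2-fold difference, 1 on the log2 scale, was thus less than 2 such SE.

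The members as a whole lay slightly above 0 in the comparison of KO with WT, and this changed with the WT library left out. With 2 WT libraries that differ, a shift in 1 of them and a difference between genotypes cannot be told apart. The median log2 fold change of the 170 tested members was 0.13, against -0.01 over all genes tested, and 108 members (63.5%) lay above 0 against 48.5% of all genes. Without WT replicate 1 the member median was -0.031 and 80 of 174 members (46.0%) lay above 0, against 50.8% of all genes; without WT replicate 2 the median was 0.41 and 126 of 175 (72.0%) lay above 0, against 51.9%. Both KO libraries lay above both WT libraries in 53 members (31.2%, against 23.5% of all genes) and below in 28 (16.5%, against 23.5%). With library size alone as scaling, which moved the median of all genes from -0.01 to 0.14, the member median was 0.29, and 71.8% of members and 64.6% of all genes lay above 0.

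Comparisons of single libraries use the same values. WT replicate 2 exceeded WT replicate 1 in 139 of 170 members, with a median log2 difference of 0.33 against 0.02 over all genes. KO replicates 1 and 2 exceeded WT replicate 1 by medians of 0.40 and 0.39. Against WT replicate 2 they differed by -0.06 and -0.04, and from each other by 0.05. WT replicate 1 was the lowest of the 4 libraries in 89 members, or 52.4% against 31.5% of all genes. The difference between the WT libraries was present at each level, with medians of 0.66 for members under 1 CPM, 0.27 between 1 and 10, and 0.34 at 10 or more. All genes tested gave 0.32, 0.17 and -0.03 at those levels. At 10 CPM or more, where counting error is smallest, the members were thus lower in WT replicate 1 while the median of all genes was not. The part of the small-RNA share and of the scaling factor of that library in this difference was not tested.

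Summed over all members, the level was 942 CPM in WT replicate 1, 1148 in WT replicate 2, and 1170 and 1187 in KO replicates 1 and 2. The KO libraries and WT replicate 2 were within a narrow range, and the WT libraries differed from each other by more than WT replicate 2 did from either KO library. In these bulk samples fewer cells with an RNA and less of it per cell cannot be told apart.

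**Figure D4:**
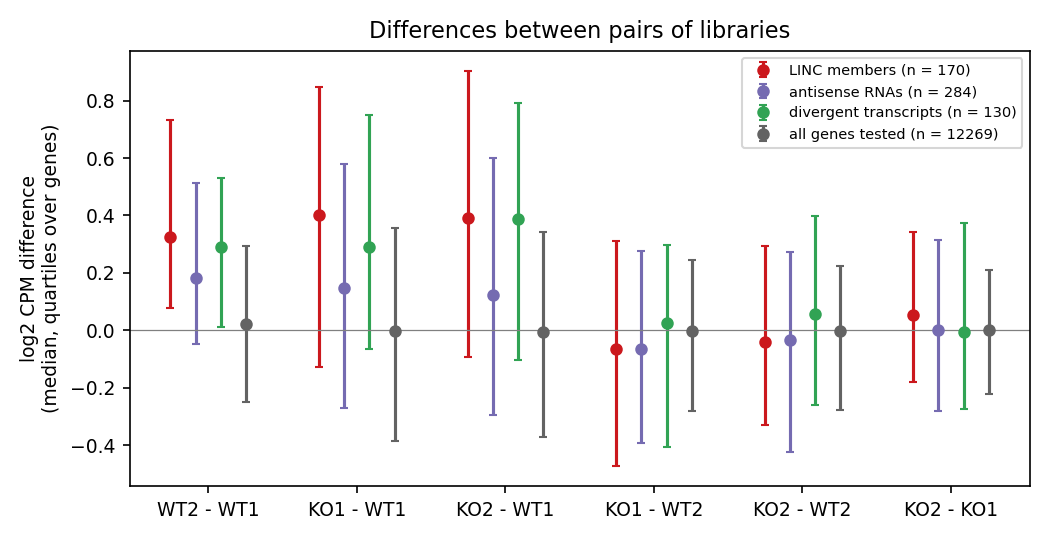
Median difference in log2 CPM (vertical axis) between each pair of libraries for LINC members (red), antisense RNAs (purple), divergent transcripts (green) and all genes tested (grey), with bars from the lower to the upper quartile over genes. The members lie at 0.33 to 0.40 in the 3 pairs with WT replicate 1 and between -0.06 and 0.05 in the other 3.

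Of the other classes of long noncoding RNA, divergent transcripts and antisense RNAs were also lower in WT replicate 1 at the median. WT replicate 2 exceeded WT replicate 1 by a median of 0.29 in 130 divergent transcripts, which start beside a coding gene and run away from it, and by 0.18 in 284 antisense RNAs. The median log2 fold change, KO minus WT, was 0.21 for divergent transcripts and 0.03 for antisense RNAs. Without WT replicate 1 the medians were 0.07 (142 divergent transcripts tested) and -0.05 (317 antisense RNAs). Without WT replicate 2 they were 0.40 (160) and 0.12 (350). The filter was applied anew when a library was left out, so these medians are over changed sets of genes. The smaller classes did not all move in this way. The median of 18 small nucleolar RNA hosts was 0.15, with 0.16 without WT replicate 1 and 0.04 without WT replicate 2. For intronic RNAs the median was 0.24 over 14 tested, with 0.43 over 19 without WT replicate 1 and 0.42 over 23 without WT replicate 2. For microRNA hosts it was 0.27 over 17, with 0.13 over 17 and 0.31 over 19. The classes were not tested against each other.

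The members were spread over 23 chromosomes, with the most on chromosomes 1 (17), 2 (15) and 3 (14). Of the 171 matched members, 168 carried the current RefSeq symbol and 3 an older one. The RefSeq spans of 85 members overlapped another gene of any kind, and 19 of these members overlapped a protein-coding gene. The counts of the 85 are uncertain where reads of overlapping genes were divided.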

How the data were processed

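The 4 libraries were stranded, ribosome-depleted total RNA, read as pairs of 150 bp, per the labels' protocols. The authors deposited estimated counts per gene and RPKM, a column for each library. Per the submitters' processing notes, Salmon 1.10.1 was used and the build was hg19; which annotation and filters were applied is not given in the sources used here. Those deposited estimated counts were whole numbers, and an estimate can fall to 0 where shared reads are divided. The deposited RPKM equal counts over length and column sum.

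Genotypes were compared with edgeR's quasi-likelihood test (edgeR 4.0.16, R 4.3.3) with TMM and filterByExpr over all genes, with Benjamini-Hochberg adjustment at 0.05. Alternatives were DESeq2 1.42.0 (Wald test on all rows, independent filtering set to 0.05, other settings default), limma-voom (limma 3.58.1), other scalings and filters, a replicate block and leaving out each library. CPM use the TMM-scaled library size; pairs of libraries were compared on log2 CPM with a prior count of 2. The edgeR, DESeq2 and limma-voom fits were tested on simulated data in which no gene was switched off in a whole group. That trial does not cover members without counts in a whole group. Floors are 3 counts over a group. The SE given with an edgeR log2 fold change is its absolute value divided by the square root of the test's F statistic.

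Members and lists were chosen with earlier results of these data known. Named members were those called by either test, the 8 of smallest p in each direction, the 8 highest by CPM and by RPKM, those at 0 in a group, those at the edge of the rule and those on the lists. RefSeq tables (GRCh38.p14) gave names, neighbours and promoter windows; the build differs from that of the counts, so their positions apply to the windows only.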

Additional observations from a re-analysis of the deposited data

How the results depend on the processing

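The number of LINC members called was 0 with edgeR, and remained 0 with limma-voom, RLE or upper-quartile factors, the filter of at least 1 CPM and the replicate block. It was 4 with DESeq2, and 1 with library size alone and 1 with no filter on low counts (LINC02895 in both). Leaving out 1 library gave 0 to 5 members with edgeR; the 5 came without WT replicate 2 and were LINC00506, LINC00665, LINC01405, LINC02895 and LINC03033, of which the last was named after its values were seen. DESeq2 without 1 library, chosen after seeing the data, gave 0 to 3. Over all genes the count was 1 with edgeR, 187 with DESeq2, 42 with library size alone, 5 with upper-quartile factors and 34 with no filter on low counts; without 1 library it was 0 to 575 with edgeR and 72 to 721 with DESeq2 (85 without WT replicate 1 and 75 without KO replicate 1). For the members, the count that changed most was the one without WT replicate 2, where 4.42% of all genes were called.

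The member median of 0.13 ranged from -0.031 to 0.41 without 1 library in edgeR and from -0.04 to 0.41 in DESeq2, and was 0.14 with the replicate block. Same-numbered libraries share only a number: the correlation of their deviations was 0.06 over 12269 genes, with 2 pairs, and the block called 1 gene and 0 members, as without it. Of 29 named members in the fit, 2 changed sign in any alternative: LINC00339 (-0.028 without WT replicate 1, up to 0.51 without WT replicate 2) and LINC00431 (-0.08 without WT replicate 1 and -0.18 without KO replicate 2, up to 0.20 without KO replicate 1). Summed member CPM was 807, 1193, 1239 and 1252 by library size alone and 911, 1324, 1343 and 1351 with RN7SK, SNORD3A and RMRP left out of the total, lowest in WT replicate 1 each time. The count minimum of the rule gave 247 members at 5 and 111 at 20. The causes of these shifts were not tested. The median SE was 0.60 for members under 1 CPM and 0.22 at 10 CPM or more. The ranges of the lower bounds of folds without 1 library, given with those RNAs, were also chosen after seeing the data.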
